A study of Homo sapiens with 6 samples.

Results

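The genes described here encode the proteins of the cytosolic ribosome. They are the protein-coding genes whose names begin with RPS (small subunit) or RPL (large subunit) and follow the standard ribosomal protein numbering, together with their L paralogs, which are copies named after a parent gene. The rule found 85 of the 60612 genes in the deposited table, 32 of the small and 53 of the large subunit. The family was chosen by earlier results of the comparison described below, the difference in FPKM between overexpression and control vector libraries. The cells were SH-SY5Y, a line from a human neuroblastoma. Of the 6 RNA-seq libraries 3 carry the label of CDKN2B-AS1 overexpression, CDKN2B-AS1 being a noncoding RNA of the 9p21 locus, and 3 are from cells infected with a control vector (stuffer). All are of the same line, and no other treatment or allele is given. The column names tag the overexpression libraries LVx2 and the control vector libraries LVx1. No label explains the tags, so what they mark cannot be told apart from the group. Whether replicates were separate cultures is not labelled, so every p-value reflects library-to-library spread that may be technical.

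Each ribosome joins a small subunit, which holds the messenger RNA and its decoding site, to a large subunit, which links amino acids at the peptidyl transferase centre and passes the growing chain out through a tunnel. Nearly every ribosomal protein is present once per ribosome, and the acidic proteins of the large subunit stalk are the known exception. Most of their messages begin with a cytidine followed by a run of pyrimidines, the 5′ terminal oligopyrimidine (TOP) tract, through which the mTOR pathway and the protein LARP1 act on translation and on message stability.

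The start sites of some members are shown to let the tract be compared between messages. They are RPS3A and RPS18, among the lowest after overexpression, and RPLP0, RPLP1 and RPLP2 of the stalk. The 4 pairs of a parent and a tested paralog that are both in the RefSeq table are also shown. RPL9 and RPL15, also among the lowest, hold no tract at the annotated start and are not shown. RPL12 of the stalk base, which holds the tract, is not shown either. Sequences are from RefSeq on GRCh38.p14, from 10 bases before the annotated start to 20 after it, and capitals mark the tract where a C at the start is followed by at least 4 pyrimidines. RPS3A lies at chr4:151099618-151099647 (+ strand), RPS18 at chr6:33272065-33272094 (+), RPLP0 at chr12:120201092-120201121 (-), RPLP1 at chr15:69452808-69452837 (+), RPLP2 at chr11:809957-809986 (+), RPL22 at chr1:6199576-6199605 (-), RPL22L1 at chr3:170870176-170870205 (-), RPS27 at chr1:153990752-153990781 (+), RPS27L at chr15:63157458-63157487 (-), RPL26 at chr17:8383174-8383203 (-), RPL26L1 at chr5:172958719-172958748 (+), RPL36A at chrX:101391001-101391030 (+) and RPL36AL at chr14:49620607-49620636 (-).
RPS3A: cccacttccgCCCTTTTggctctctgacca
RPS18: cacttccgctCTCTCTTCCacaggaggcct
RPLP0: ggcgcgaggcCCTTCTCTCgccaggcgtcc
RPLP1: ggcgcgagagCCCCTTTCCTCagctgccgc
RPLP2: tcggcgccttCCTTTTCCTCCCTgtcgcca
RPL22: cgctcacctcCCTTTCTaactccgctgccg
RPL22L1: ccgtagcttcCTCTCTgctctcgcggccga
RPS27: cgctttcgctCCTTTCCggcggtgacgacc
RPS27L: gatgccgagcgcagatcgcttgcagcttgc
RPL26: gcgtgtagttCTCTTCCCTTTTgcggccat
RPL26L1: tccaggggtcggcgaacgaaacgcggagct
RPL36A: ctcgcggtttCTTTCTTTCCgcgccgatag
RPL36AL: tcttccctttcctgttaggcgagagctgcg

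The parent genes RPS27, RPL26 and RPL36A hold a tract at the annotated start, and their paralogs RPS27L, RPL26L1 and RPL36AL do not by this definition, whereas RPL22 and its paralog RPL22L1 both hold it. RPL36AL has a run of pyrimidines that lies mostly before its annotated start. The RefSeq promoter table held 68 of the 85 members, and 47 of these (69.1%) had the tract exactly at the start, against 1404 of all 27305 genes in the table (5.14%). Allowing the same letters anywhere from 10 bases before to 15 after the start gave 59 members (86.8%) and 38.4% of all genes. The letters TATAA, searched on the sense strand from 40 to 16 bases before the start, were in 9 members (13.2%) and 4.94% of all genes. The letters CCGGAAG, a core of ETS factor motifs searched on both strands over the 300-base window, were in 24 members (35.3%) and 12.2% of all genes, and in 2 of the tract-bearing entries they overlapped the tract. These are matches of letters and not measured sites.

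Depth recovered from the values was 20466583 to 48996425 fragments in the overexpression libraries and 29048596 to 45102020 in the control vector libraries. Between 13913 and 13965 genes reached 1 FPKM (fragments scaled to gene length and library total) in overexpression libraries, against 13530 to 13754 in control vector libraries. CDKN2B-AS1 itself was at 0.338, 0.304 and 0.353 FPKM in libraries labelled overexpression and at 0.272, 0.288 and 0.191 FPKM in control vector libraries, 1.33 times as high on average, with an exact two-sided permutation p of 0.1, the smallest that 3 against 3 allows. Every value lay below the 1 FPKM needed for testing, so limma-trend did not test this gene. These values alone do not show the labelled overexpression, and overexpression here and below refers to the label. Log values correlated at 0.975 to 0.983 within overexpression, 0.959 to 0.968 within control vector and 0.959 to 0.969 between the groups, as a description across genes. Of 11 markers of adrenergic neuroblastoma cells 10 were tested and 0 passed limma-trend or limma-voom, with 1 lower and 2 higher at an unadjusted p under 0.05, and with summed levels of 1292 to 1407 FPKM in overexpression and 1219.7 to 1368 FPKM in control vector libraries. However, TH, the rate-limiting enzyme of catecholamine synthesis, was at or near 0 in all 6 libraries. Epithelial and immune markers were at or near 0 (KRT5, KRT14, PTPRC, MS4A1 and CD3E at 0 throughout). The 7 fibroblast markers, 5 of them tested, summed to 50.4 to 65.9 FPKM in overexpression and 38.7 to 55.4 FPKM in control vector libraries. Of the 5 tested 0 passed limma-trend or limma-voom, with 0 lower and 1 higher at an unadjusted p under 0.05. FBLN1, the highest of the 7, had 35.5, 39.1 and 16.3 FPKM in overexpression libraries and 12.5, 18.6 and 20.2 FPKM in control vector libraries. Schwann and glial markers summed to 3.34 to 3.54 FPKM in overexpression and 3.03 to 6.92 FPKM in control vector libraries. The part of these cell types in the results was not tested.

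Messages of many cytosolic ribosome genes were lower after CDKN2B-AS1 overexpression in both subunits. Of the 85 members 83 were tested, 24 fell, 0 were higher past the threshold and 59 did not pass. Their median log2 fold change was -0.42, against 0.05 over all 13984 tested genes. The test was limma-trend on log2(FPKM + 0.5) with Benjamini-Hochberg adjustment over all tested genes at 0.05, and it called 1.14% of all tested genes, 0.608% lower and 0.529% higher. Fold changes are overexpression over control vector on that scale and understate changes of low genes. At an unadjusted p under 0.05, 67 members were lower and 0 higher, against 7.34% and 10.4% of all tested genes, and limma-voom also called 0 members higher. All 3 overexpression libraries lay below all 3 control vector libraries for 70 members and above them for 1, RPL36AL, with 12 overlapping, and such separation was seen in 9.9% (below) and 14.2% (above) of all tested genes. Since this comparison is the one on which the family was picked, these counts and all fold changes below describe the members and support nothing further. Leaving out any single library reduced the 24 calls to between 0 and 8, with 8 when control vector replicate 3 was left out, 1 when overexpression replicate 3 was left out and 0 when any of the other 4 was. Rescaling each library to a common FPKM total, which shifts the median of all genes by 0.10, gave 11 calls and a member median of -0.31, and split all calls into 181 higher and 52 lower in place of 74 and 85. Some members moved by over 1.5 times with that scaling, among them RPS27A to -0.06, RPL3 to -0.08 and RPL8 to -0.21. In these bulk libraries fewer cells of a type and less RNA per cell cannot be told apart.

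**Figure D1:**
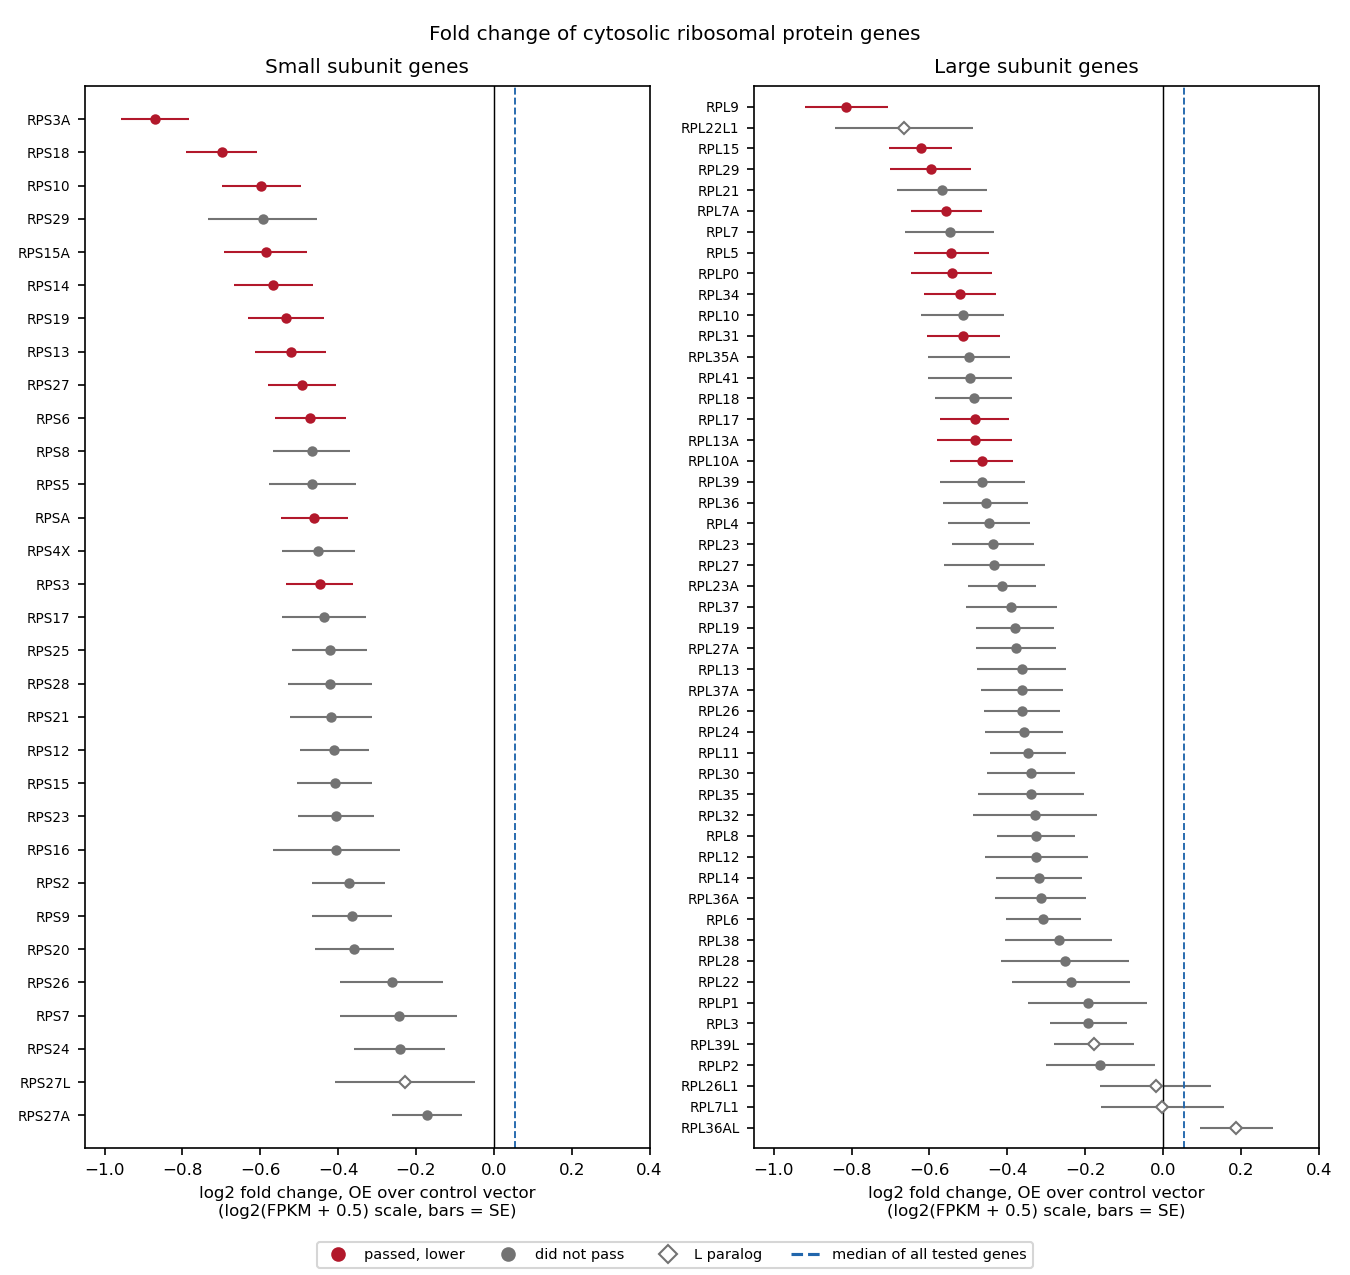
The x axis is the log2 fold change of each tested member, overexpression over control vector, with its SE as a bar, and genes run down the y axis by subunit, without a few that are not reported here. Red points are members that passed lower, grey points did not pass, open diamonds are L paralogs, and the dashed line is the median of all tested genes at 0.05; all but RPL36AL lie below 0, of which RPL26L1 and RPL7L1 lie above it with a common FPKM total, RPL26L1 with the length trend removed, and these 2 and RPLP2 with some single libraries left out.

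The family's share of each library was lower after overexpression. Members held 5.23, 4.97 and 4.81% of the FPKM sum in overexpression libraries, against 6.42, 6.42 and 6.16% in control vector libraries, a difference of -1.33 percentage points that exceeded the spread within either group. In recovered fragments they took 5.24, 4.95 and 4.65% of the overexpression libraries and 6.72, 7.05 and 6.49% of the control vector libraries. The groups did not overlap in either share. Among the 100 genes of highest FPKM, 12, 11 and 12 were members in overexpression libraries and 17, 17 and 16 in control vector libraries. The median member lay at -0.33, -0.42 and -0.51 on the log2 scale in overexpression replicates 1, 2 and 3, relative to the control vector mean, and at -0.02, 0.05 and -0.05 in control vector replicates 1, 2 and 3. The order of the members by level hardly moved: their mean FPKM in overexpression and in control vector libraries had a Spearman rho of 0.99 over 83 genes, which share libraries and depth.

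**Figure D2:**
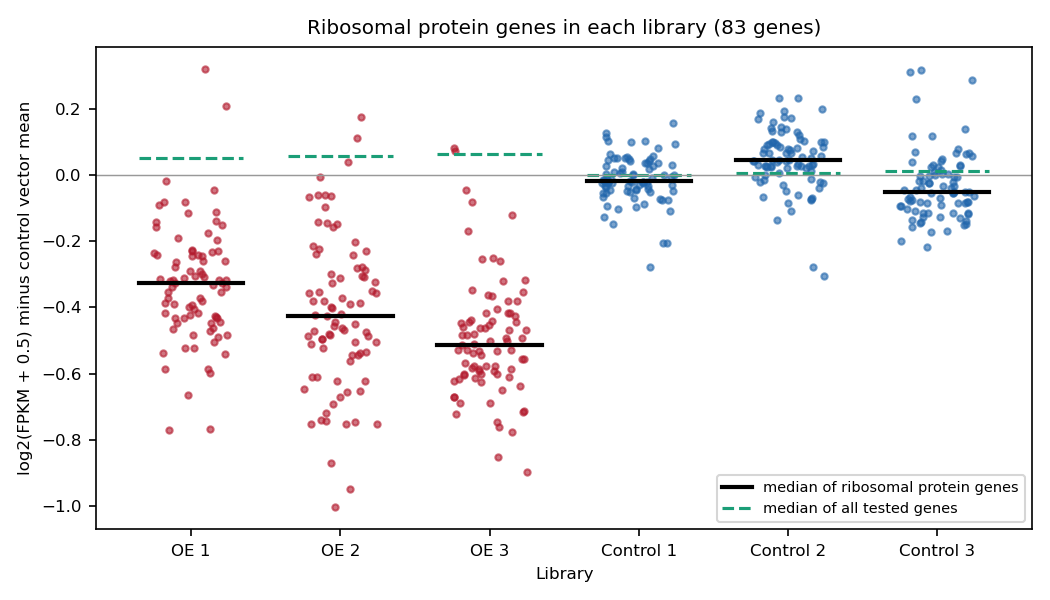
Each point is 1 of 83 ribosomal protein genes in 1 library, as its log2(FPKM + 0.5) minus its control vector mean on the y axis, with overexpression libraries (red) left of control vector libraries (blue). Black bars are the members' medians, between -0.51 and -0.33 in overexpression and between -0.05 and 0.05 in control vector libraries, and green dashed lines are medians of all tested genes.

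The small subunit gave the member that was lowest after overexpression. RPS3A, a protein of the platform near the exit of the messenger RNA channel (chr4:151099624-151104642 in the table), had 297, 262 and 272 FPKM in overexpression libraries, against 489, 523 and 507 FPKM in control vector libraries. Every overexpression value lay far below every control vector value, and RPS3A fell to 0.547 of its control vector mean, a log2 fold change of -0.87 (SE 0.09, limma-trend adjusted p = 0.015). SH3D19, which overlaps RPS3A on the opposite strand, also fell, by 0.93 on the log2 scale, and since use of strand in counting is not stated the pair cannot be separated. The table holds 53 pseudogenes named after RPS3A, whose fragments came to 37.4% of those of RPS3A itself.

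RPS18, in the head of the small subunit, was the most abundant member in FPKM. It had 979, 873 and 866 FPKM in overexpression libraries and 1468, 1553 and 1389 FPKM in control vector libraries. The groups stood well apart, and RPS18 fell by 0.70 on the log2 scale (SE 0.09, limma-trend adjusted p = 0.0215).

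Within the small subunit head 4 of 14 members fell, and the median log2 fold change was -0.43. They were RPS18, RPS10, RPS19 and RPS3. RPS10, which binds near the entry of the messenger RNA channel, averaged 86.4 ± 7.23 FPKM after overexpression and 131 ± 6.64 FPKM with control vector (SD, n = 3 each). The protein-coding gene RPS10-NUDT3, which overlaps RPS10 on the same strand, averaged 50.9 FPKM after overexpression and 68.3 FPKM with control vector. Fragments of RPS10 and RPS10-NUDT3 cannot be separated. RPS19, the gene most often altered in Diamond-Blackfan anaemia, averaged 385 ± 30.9 FPKM after overexpression and 557 ± 41.9 FPKM with control vector. RPS3, which lines the channel entry and is ubiquitinated on collided ribosomes, averaged 267 ± 12.9 and 364 ± 15.3 FPKM in overexpression and control vector libraries. RPS29, a zinc-binding head protein, had a log2 fold change of -0.59, near that of RPS10, with a larger SE of 0.14, and did not pass. RPS27A, made as a fusion with ubiquitin, had the fold change nearest 0 in the small subunit, with 183, 179 and 166 FPKM in overexpression libraries, against 204, 189 and 202 FPKM in control vector libraries. Its groups did not overlap, and its log2 fold change was -0.17 (SE 0.09).

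In the body and platform 8 of 17 members fell, with a median of -0.46. Beside RPS3A they included RPS15A, RPS14, RPS13, RPS27, RPS6 and RPSA. RPS14, a platform protein whose loss causes the anaemia of the 5q- syndrome, averaged 234 ± 24.6 FPKM after overexpression and 346 ± 15.5 FPKM with control vector. RPS6, the substrate of the S6 kinases, averaged 414 ± 31.7 and 574 ± 23.7 FPKM in overexpression and control vector libraries. RPSA, also known as the laminin receptor, averaged 190.1 ± 7.76 FPKM after overexpression and 262 ± 10.6 FPKM with control vector. RPS15A overlaps another protein-coding gene on the same strand, RP11-1035H13.3, that fell by 0.47, so fragments of this pair cannot be separated. RPS2, at the channel entry and among the 6 members of highest FPKM, had 704, 641 and 685 FPKM in overexpression libraries and 876, 958 and 800.4 FPKM in control vector libraries. Its groups did not overlap, but its log2 fold change of -0.37 (SE 0.09, limma-trend adjusted p = 0.0972) did not pass. RPS24 had the highest value of the set at -0.24, and RPS7 and RPS26 were the members whose groups overlapped.

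The FPKM sum of small subunit members over that of large subunit members was 0.887, 0.885 and 0.898 in overexpression libraries and 0.960, 0.942 and 0.932 in control vector libraries. The ratio was lower in every overexpression library, a difference of -0.05 between means. The median log2 fold change was -0.44 over the 32 small subunit members, 12 of which fell, and -0.39 over the 51 tested large subunit members, 12 of which fell. With the paralogs left out the medians were -0.45 over 31 and -0.42 over 46 members. RPS18, which had the highest FPKM of all members in the control vector libraries, is of the small subunit.

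On the large subunit RPL9 (chr4:39452587-39458931 in the table) was the lowest after overexpression. It had 94.6, 80.4 and 101 FPKM in overexpression libraries, against 156, 164 and 164 FPKM in control vector libraries. RPL9 fell by 0.81 on the log2 scale (SE 0.11, limma-trend adjusted p = 0.0215), with the groups far apart. Its 19 named pseudogenes held fragments equal to 48.8% of its own, the highest such share in the family.

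RPL15, a core protein that joins early in assembly, had 233, 226 and 229.8 FPKM in overexpression libraries and 349, 354 and 359.5 FPKM in control vector libraries. Its libraries were tight in both groups, and RPL15 fell by 0.62 (SE 0.08). Of the 28 members outside the named functional sites 7 fell, with a median of -0.41, among them RPL9, RPL15, RPL29, RPL7A, RPL34 and RPL13A. RPL13A, a protein that in human monocytes can leave the ribosome to silence inflammatory messages, averaged 287 ± 23.1 FPKM after overexpression and 401 ± 25.7 FPKM with control vector (SD, n = 3 each). RPL8, beside the peptidyl transferase centre, had 832, 795 and 719 FPKM in overexpression libraries and 1007, 1054 and 881 FPKM in control vector libraries. The groups of RPL8 did not overlap, but its log2 fold change of -0.33 (SE 0.10) did not pass. RPL3, which also reaches that centre, stood at -0.19, the highest of these 28.

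In the stalk, which recruits translation factors to the large subunit, 1 of 4 members fell, with a median of -0.26. RPLP0, the base that carries the acidic proteins, had 418, 346 and 434 FPKM in overexpression libraries, against 566, 609 and 563 FPKM in control vector libraries. RPLP0 fell by 0.54 on the log2 scale (SE 0.10, limma-trend adjusted p = 0.0448), with no overlap. RPLP1, of the acidic pair, had 491, 521 and 339.7 FPKM in overexpression libraries and 499, 557 and 468 FPKM in control vector libraries. RPLP2, its partner, had 358, 411 and 269 FPKM in overexpression libraries and 379, 389 and 376 FPKM in control vector libraries. In both acidic genes overexpression replicate 3 was far below the others. In RPLP2 overexpression replicate 1 was a little below and replicate 2 above all control vector libraries. Their log2 fold changes of -0.19 (SE 0.15) and -0.16 (SE 0.14) did not pass, and without overexpression replicate 3 they were -0.00 and 0.01. RPL12, at the stalk base, had 204, 218 and 160.3 FPKM in overexpression libraries and 229, 275 and 222 FPKM in control vector libraries, with a log2 fold change of -0.33 that did not pass and was -0.19 without that replicate. RPLP0 without that replicate was at -0.61. The difference between RPLP0 and its partners was not tested.

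RPL5 and RPL11 bind 5S ribosomal RNA, and the complex can bind the ubiquitin ligase MDM2 when it is not built into ribosomes. RPL5 had 184, 173 and 193 FPKM in overexpression libraries, against 255, 255 and 294 FPKM in control vector libraries. RPL5 fell by 0.54 (SE 0.10). RPL11 had 139.7, 137 and 119 FPKM in overexpression libraries and 172, 171 and 160.3 FPKM in control vector libraries. The groups of RPL11 did not overlap, and its log2 fold change of -0.35 (SE 0.10, limma-trend adjusted p = 0.125) did not pass.

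**Figure D3:**
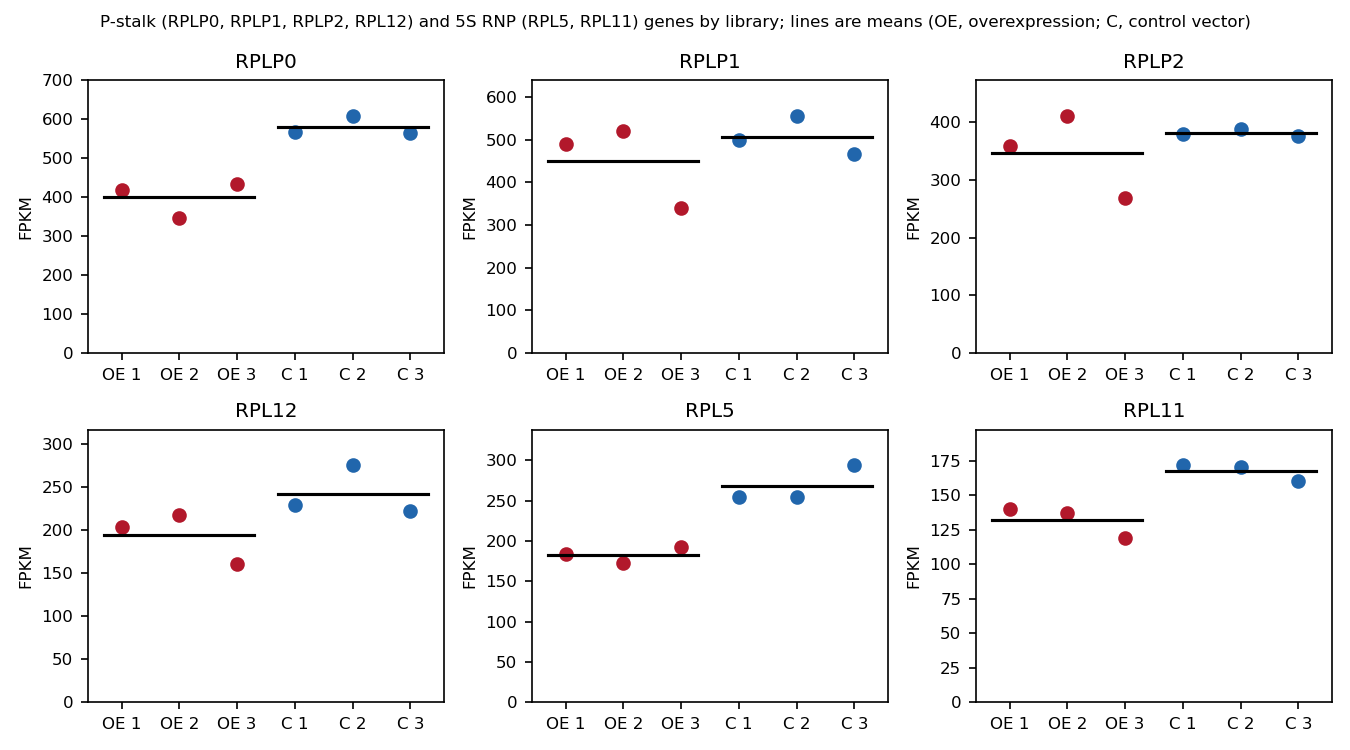
FPKM on the y axis is shown for 4 stalk genes and 2 partners of 5S ribosomal RNA in each library on the x axis, with overexpression libraries (red) left of control vector libraries (blue) and group means as lines. RPLP0 and RPL5 separate the groups, while in RPLP1 and RPLP2 overexpression replicate 3, at 339.7 and 269 FPKM, lies below all control vector libraries. Overexpression replicates 1 and 2 overlap their range in RPLP1 and lie on either side of it in RPLP2.

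Around the exit tunnel 2 of 8 members fell, RPL31 and RPL17, with a median of -0.43. RPL31, at the rim where chaperones dock, averaged 84.1 ± 4.89 FPKM after overexpression and 120.2 ± 3.95 FPKM with control vector (SD, n = 3 each). RPL17 averaged 95.4 ± 3.58 and 134 ± 1.04 FPKM in overexpression and control vector libraries, and the readthrough gene RPL17-C18orf32 on the same strand fell by 0.46, so this pair cannot be separated. RPL4, whose loop narrows the tunnel, stood at -0.45 and did not pass. In the list named late-joining and bridge proteins 1 of 4 members fell. It was RPL10A, which fell by 0.47, with 341 ± 7.45 FPKM after overexpression and 471 ± 12.6 FPKM with control vector. Whether RPL10A has either of the roles named was not checked, so this count describes the list only. RPL41, the smallest member and a bridge between subunits, had 689, 695 and 552 FPKM in overexpression libraries and 874, 959 and 884 FPKM in control vector libraries, without overlap. Its log2 fold change of -0.49 (SE 0.11, limma-trend adjusted p = 0.0627) did not pass. RPL10, added last in the cytoplasm, stood at -0.51 and did not pass either.

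Across these roles, 19 members are genes of Diamond-Blackfan anaemia, an inherited failure of red cell production. Of these 7 fell: RPS19, RPS10, RPS27, RPL5, RPL15, RPL31 and RPL9. All 19 had a fold change below 0, with a median of -0.49, and the groups of RPS7, RPS26 and RPL35 overlapped.

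The paralogs had a median nearer to 0 than any other role group. Of 8 paralogs 6 were tested and 0 passed limma-trend or limma-voom in either direction, with 1 lower and 0 higher at an unadjusted p under 0.05 and a median of -0.10. RPL3L, a muscle gene, and RPL10L, a testis gene, were below the level needed for testing, at 0.363 ± 0.34 and 0.0374 ± 0.00949 FPKM after overexpression and 0.330 ± 0.253 and 0.0399 ± 0.0264 FPKM with control vector (SD, n = 3 each).

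RPL36AL, which encodes a protein almost identical to that of RPL36A, was the 1 member higher in every overexpression library. It had 241, 218 and 203 FPKM in overexpression libraries and 194, 195 and 189.9 FPKM in control vector libraries, with a log2 fold change of 0.19 (SE 0.09, limma-trend adjusted p = 0.327) that did not pass. The value was 0.12 without overexpression replicate 1, 0.12 with median-of-ratios scaling and 0.30 with a common FPKM total. Its parent RPL36A had 33.7, 35.2 and 28.9 FPKM in overexpression libraries and 37.9, 41.3 and 42.4 FPKM in control vector libraries, also without overlap but on the lower side. The ratio of RPL36AL to RPL36A was 7.14, 6.19 and 7.01 in overexpression libraries, against 5.11, 4.71 and 4.48 in control vector libraries, 1.42 times as high. The gene RPL36A-HNRNPH2, which overlaps RPL36A on the same strand, averaged 222 FPKM after overexpression and 256 FPKM with control vector. Fragments of RPL36A and RPL36A-HNRNPH2 cannot be separated, so this ratio is uncertain.

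RPL7L1, a paralog that acts in assembly of the large subunit, had 19.8, 19.2 and 21.3 FPKM in overexpression libraries and 19.6, 16.5 and 25.0 FPKM in control vector libraries. Its groups overlapped, with a log2 fold change of -0.00. Its parent RPL7 had 167, 144 and 188 FPKM in overexpression libraries, against 235, 229.7 and 263 FPKM in control vector libraries, without overlap. The ratio of RPL7L1 to RPL7 was 0.119, 0.133 and 0.113 in overexpression libraries and 0.0834, 0.0717 and 0.0953 in control vector libraries, 1.46 times as high after overexpression. RPL26L1 had 67.9, 53.1 and 54.0 FPKM in overexpression libraries and 50.8, 69.1 and 57.7 FPKM in control vector libraries, overlapping throughout. RPL26, which in human cells binds the p53 message, had 83.3, 83.6 and 75.4 FPKM in overexpression libraries and 97.1, 109 and 106 FPKM in control vector libraries. The RPL26L1 to RPL26 ratio was 0.815, 0.6353 and 0.716 in overexpression libraries and 0.523, 0.6348 and 0.544 in control vector libraries, so overexpression replicate 2 and control vector replicate 2 nearly met. The protein-coding gene RP11-849F2.7, which overlaps RPL26 on the same strand, averaged 59.7 FPKM after overexpression and 78.0 FPKM with control vector. Fragments of RPL26 and RP11-849F2.7 cannot be separated, so this ratio is uncertain.

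RPL22L1 was the paralog with the lowest fold change. It had 9.25, 7.96 and 10.7 FPKM in overexpression libraries, against 12.9, 13.8 and 18.7 FPKM in control vector libraries. The groups did not overlap, and its log2 fold change of -0.67 (SE 0.18, limma-trend adjusted p = 0.109), the fourth lowest in the family, did not pass. RPL22, whose protein represses RPL22L1 in mice, had 13.6, 13.7 and 13.4 FPKM in overexpression libraries and 13.1, 16.7 and 18.9 FPKM in control vector libraries, and its groups overlapped. The ratio of RPL22L1 to RPL22 was 0.679, 0.582 and 0.800 in overexpression libraries and 0.981, 0.830 and 0.992 in control vector libraries, lower in every overexpression library. The protein-coding gene RP1-120G22.12, which overlaps RPL22 on the same strand, averaged 49.4 FPKM after overexpression and 57.4 FPKM with control vector. Fragments of RPL22 and RP1-120G22.12 cannot be separated, so this ratio is uncertain. RPL39L, high in testis and some tumours, had 59.7, 51.9 and 56.1 FPKM in overexpression libraries and 61.6, 67.3 and 60.9 FPKM in control vector libraries, and its ratio to RPL39 was 0.255, 0.227 and 0.306 in overexpression libraries and 0.207, 0.221 and 0.214 in control vector libraries. RPL39 itself had 234, 229 and 183 FPKM in overexpression libraries and 297, 304 and 285 FPKM in control vector libraries, without overlap. RPS27L, a p53 target, had 8.18, 8.34 and 10.1 FPKM in overexpression libraries and 10.6, 8.34 and 12.8 FPKM in control vector libraries, with overlap. Its parent RPS27 had 610.2, 620.3 and 545 FPKM in overexpression libraries and 848, 843 and 805 FPKM in control vector libraries, and fell by 0.49. The sources used here do not say how fragments matching both a parent and a copy were assigned, so levels within these pairs are uncertain.

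**Figure D4:**
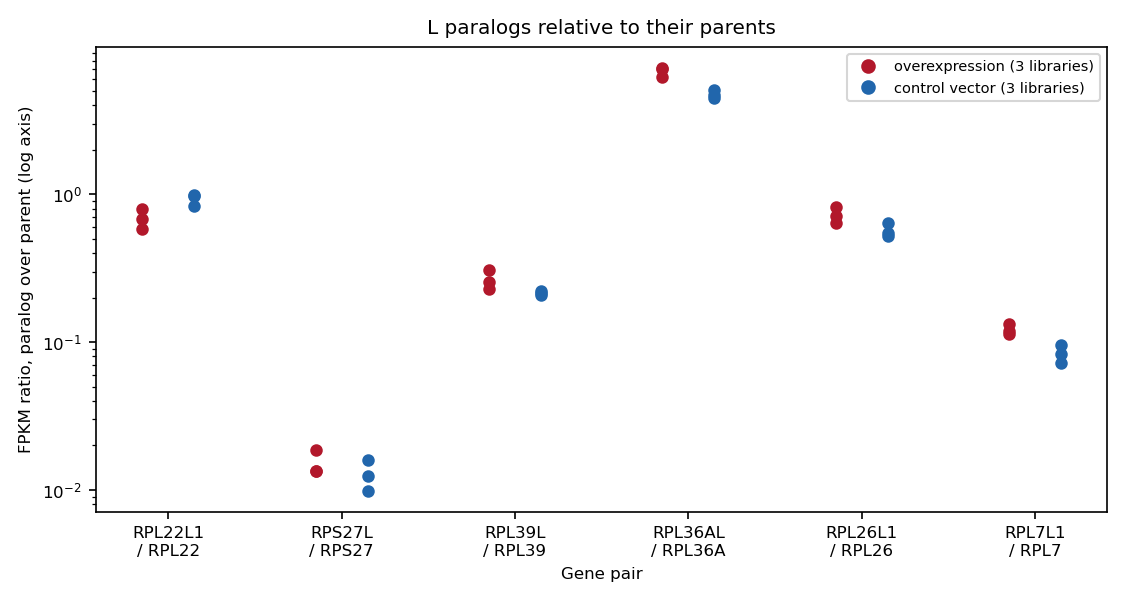
The FPKM ratio of each tested L paralog to its parent is on the y axis (log axis), with 3 overexpression libraries (red) left of 3 control vector libraries (blue) for each pair. The RPL36AL, RPL7L1, RPL39L and RPL26L1 ratios were higher and the RPL22L1 ratio lower in all overexpression libraries, the RPL26L1 groups by 0.6353 against 0.6348 at their nearest, and the RPS27L ratio overlapped. The parents RPL36A, RPL26 and RPL22 overlap other protein-coding genes on the same strand, so ratios to them are uncertain.

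Overexpression replicate 3 differed from its group mates within the family. Relative to the mean of overexpression replicates 1 and 2 its median member differed by -0.13 on the log2 scale, and it was below both in 50 members and above both in 12 of 83. In 10 members it was lower by more than 0.4, a limit chosen after the values were seen: RPL27, RPS16, RPL35, RPL32, RPL38, RPS26, RPL28, RPS7, RPLP1 and RPLP2. By limma-trend and by limma-voom 0 of these 10 passed, 3 were lower at an unadjusted p under 0.05, and they make up 8 of the 12 members whose groups overlapped. Members picked for a low replicate have a wide spread in the overexpression group, so these counts follow in part from the choice. RPS16, a head protein, showed it most among the small subunit genes, with 287, 339 and 212 FPKM in overexpression libraries and 349, 416 and 329 FPKM in control vector libraries. RPS7, a body protein, had 225, 227 and 158 FPKM in overexpression libraries and 214, 271 and 231 FPKM in control vector libraries. In both genes overexpression replicate 3 lay below all control vector libraries while overexpression replicate 2 lay within their range.

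The shift of overexpression replicate 3 went with the coding length of the member. Spearman's rho between them was 0.54 over 83 members and 0.13 over 10410 tested protein-coding genes, as a description of points that share 3 libraries. By coding length the median shift was -0.28 in 11 members up to 300 bases, -0.18 in 30 members up to 450 bases, -0.11 in 19 members up to 600 bases and 0.01 in 23 longer members. The bin of 11 includes RPL41, RPL39, RPL39L, RPS29, RPS28 and RPL38, and in it overexpression replicate 3 was on the whole lower. The log2 fold change between the groups had a weaker rho with coding length, -0.21 over the same members. The shift also had a rho of -0.54 with that of control vector replicate 2 against its own group mates, whose median was 0.06. Overexpression replicate 3 was the deepest library and control vector replicate 2 the shallowest of its group, and the part of depth in these shifts was not tested.

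**Figure D5:**
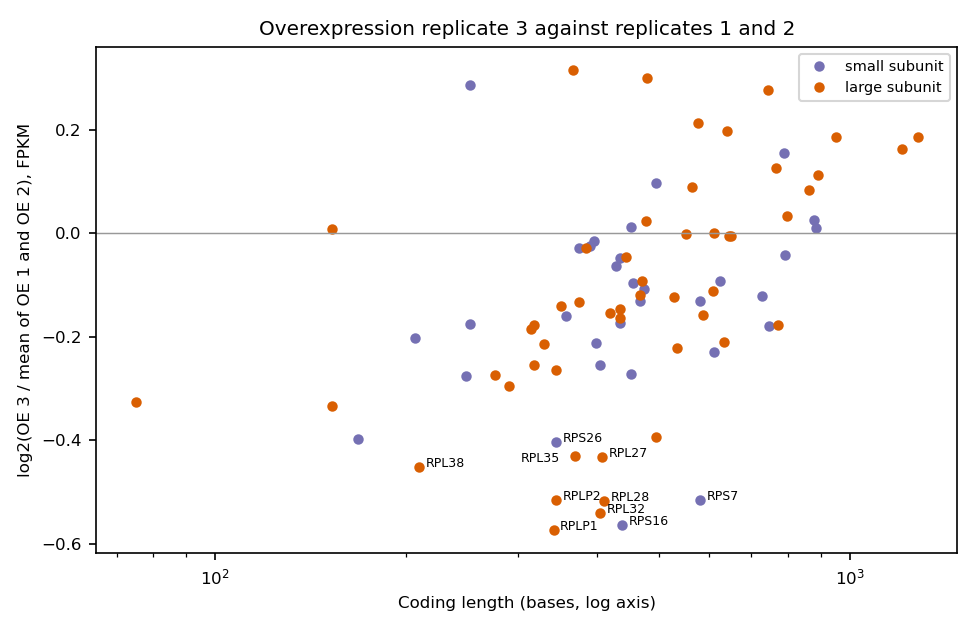
Each point is 1 of 83 tested members, with coding length in bases on a log x axis and the log2 ratio of overexpression replicate 3 to the mean of overexpression replicates 1 and 2 on the y axis, coloured by subunit. Short members lie mostly below 0 and the longest mostly above it, and the 10 named genes are those below -0.4.

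Fold changes were also set against the start tract. The median log2 fold change was -0.45 in the 47 tested members with the tract, 16 of which fell, -0.39 in the 20 without it, 4 of which fell, and -0.44 in the 16 not in the promoter table, 4 of which fell. Of the 20 without the tract 4 were paralogs, and with paralogs left out the medians were -0.43 in 46 members with the tract and -0.43 in 16 without it. RPS3A and RPS18 above hold the tract, and so do RPLP1 and RPLP2, near the other end of the range. RPL9 and RPL15, both among the lowest, have no tract at the annotated start. Members of higher control vector FPKM had lower fold changes, with a Spearman rho of -0.34 over 83 members, tested paralogs included. The same control vector libraries enter both quantities, so their spread alone can give a negative rho, and nothing is concluded from it.

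Levels compared between members carry a limit of the deposited lengths. The exon length in the table was 1.61 to 58.6 times the coding length of the same member, with a median of 6.11 times, and FPKM divides by that exon length. RPS29 is the extreme, with 9840 bases in the table and a coding sequence of 168 bases, and its 17.7 ± 2.73 FPKM after overexpression and 26.7 ± 1.37 FPKM with control vector understate its level relative to other members. The length of a gene is the same in every library and cancels in a ratio of its FPKM, while the added 0.5 lessens the log2 fold change of a member with low FPKM. With the trend on length removed from each library, the log2 fold change of RPS29 was -0.76 in place of -0.59 and that of RPL15 was -0.74 in place of -0.62.

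Among the listed genes of the ribosome and of TOP messages outside the family, 1 passed the test. The 3 listed ribosomal components that the name rule does not reach, among them FAU and RACK1, had a median of -0.22, and 0 of 3 passed limma-trend or limma-voom, with 1 lower at an unadjusted p under 0.05. FAU, made as a fusion protein, had 196.7, 196.9 and 160.6 FPKM in overexpression libraries and 223.7, 231.8 and 191.1 FPKM in control vector libraries, which overlapped by a little. Of 15 other TOP messages 0 fell by limma-trend (1 by limma-voom, 4 at an unadjusted p under 0.05), 1 rose and 14 did not pass, with a median of -0.13. The one that rose was VIM, an intermediate filament gene, with 72.1 ± 2.01 FPKM after overexpression and 45.2 ± 4.55 FPKM with control vector (SD, n = 3 each), a log2 fold change of 0.67 (limma-trend adjusted p = 0.0332). VIM-AS1 and RP11-124N14.3, which overlap the span of VIM on the opposite strand, rose too. Overlap of their exons with those of VIM was not checked, so whether they share fragments is not known. EEF1A1, the main elongation factor, had 396, 385 and 427 FPKM in overexpression libraries and 483, 524 and 538 FPKM in control vector libraries, without overlap but not past the threshold. EEF1G was the lowest of the list at -0.45. Of 42 ribosome assembly factors 0 passed limma-trend or limma-voom, with 6 lower and 9 higher at an unadjusted p under 0.05 and a median of 0.10. NCL, the nucleolar protein nucleolin, had 87.6, 97.3 and 82.5 FPKM in overexpression libraries and 61.8, 66.0 and 66.9 FPKM in control vector libraries. Its log2 fold change of 0.45 did not pass and was not the largest of the list. Of the 42 factors 17 had a fold change below 0. Of 12 regulators of TOP messages 0 passed limma-trend or limma-voom, with 1 lower and 3 higher at an unadjusted p under 0.05 and a median of -0.00. LARP1 averaged 8.88 ± 0.594 FPKM after overexpression and 6.21 ± 0.570 FPKM with control vector (SD, n = 3 each), with a log2 fold change of 0.48 that did not pass.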

How the data were processed

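Total RNA was made into SMART-seq libraries and sequenced as read pairs, per the labels' protocols. Alignment and counting tools were STAR 2.7.9 and featureCounts 2.0.1, on hg38 (GRCh38.p13), per the submitters' processing notes. Options for strand and for fragments with several matches are not given in the sources used here. FPKM values of the 6 libraries and an exon length per gene were deposited, per the file headers. FPKM times length in kilobases summed to 1e+06 per library, and all values were multiples of 0.01 fragments at the recovered depth (tolerance 0.001, values up to 1000 fragments). Of the values 45.0 to 48.7% were whole fragments, so no count test was the main test.

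Genes with at least 1 FPKM in at least 3 of 6 libraries (13984) entered a limma-trend fit (limma 3.58.1, R 4.3.3) of log2(FPKM + 0.5) values without covariates, using Benjamini-Hochberg adjustment at 0.05. Tested members had 334 to 121451 fragments per library. The members, lists and rule for named members (lowest and highest fold changes, highest and lowest levels, paralogs with parents, role groups) were chosen with earlier results of these data known. Coding lengths came from GENCODE annotation, and start sequences from RefSeq. Pseudogenes were matched to a member by name, 1301 in all, and overlapping genes by position. Other filters, pseudocounts, scalings, models, a replicate block, removal of a length trend, and leaving out each library were tried. The replicate numbers were not taken as pairs. A few genes are counted in the lists but not reported here by name.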

Additional observations from a re-analysis of the deposited data

How the results depend on the processing

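All 159 genes passing became 330 with a mean FPKM of at least 5, 0 with no filter on low values (3538 at an unadjusted p under 0.05) and 0 without the mean-variance trend (2304), and 0 to 139 with 1 library left out; 127 passed by limma-voom. The 24 members passing lower became 0 with no filter and 44 with a mean FPKM of at least 5. They became 11 with a common FPKM total and 0 without the trend. With 1 library left out 0 to 8 passed lower, and 60 to 70 members had an unadjusted p under 0.05 in either direction. Limma-voom gave 27, median-of-ratios scaling 35 and removal of the length trend 26. The count higher was 0 throughout. The member median of -0.42 moved to -0.31 with a common FPKM total, was -0.47 to -0.39 with 1 library left out and -0.49 to -0.42 otherwise. The share difference of -1.33 points was -1.44 to -1.23 with 1 library left out; scaling leaves a share within a library unchanged by construction, and the length alternative, fitted on tested genes, gives none. With the replicate number as a block 37 members and 229 genes passed. Same-numbered libraries had deviations correlating at -0.02, 0.11 and 0.12. Differently numbered libraries were not set beside them, so these values cannot decide whether same-numbered samples share a batch or a pairing. The log2 fold change of RPL26L1 turned to 0.092 with a common FPKM total and 0.028 without the length trend, and was -0.13 to 0.10 with 1 library left out. RPL7L1 turned to 0.11 with a common FPKM total and was -0.14 to 0.15 with 1 left out, and RPLP2 was -0.30 to 0.0096. None of these passed, and 79 of 83 members were below 0 in every alternative run. The causes were not tested. Depth limits low members such as RPL3L and RPL10L.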
